A study of Mus musculus with 2 samples.

Results

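Cells store surplus fatty acids as triglyceride in lipid droplets and release them again when energy is needed. ATP-citrate lyase (Acly), acetyl-CoA carboxylase (Acaca) and fatty acid synthase (Fasn) build palmitate from citrate, Elovl6 lengthens it, and the stearoyl-CoA desaturases Scd1 and Scd2 introduce a double bond. Dgat1 and Dgat2, enzymes of unrelated sequence, catalyse the last step of triglyceride synthesis. Pnpla2 (adipose triglyceride lipase) and Lipe (hormone-sensitive lipase) take triglyceride and diglyceride apart. Skeletal muscle keeps small droplets beside its mitochondria, and fat cells between the fibres hold much larger stores.

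The RNA of these 10 enzyme genes was followed among the 34745 genes of the count table. They were chosen by name from their roles, with earlier results of these data known. All 10 had a row, and all reached the summed count of 20 above which a gene was compared, as did 12662 genes in total. Gastrocnemius, a calf muscle of mainly fast fibres, was taken from Cipc scKO and from Cipc flox/flox mice, both C57BL/6 and 8 weeks old, and gave 1 library of total RNA for each genotype. Flox/flox denotes Cipc alleles flanked by loxP sites. According to the series title, Cipc was deleted in satellite cells, the muscle stem cells, and scKO was taken to be that deletion. The Cre driver, any pooling of animals, the time of day and the feeding state are not given in the sources used here. The title also speaks of mdx mice, which lack dystrophin, but no label of these samples does, so their dystrophy status is uncertain. CIPC, the product of Cipc, inhibits CLOCK and BMAL1, transcription factors that drive daily gene expression through E-box sequences. The question followed here is how the enzyme RNAs of the whole muscle differed between the scKO library and the flox/flox library.

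Because there was 1 library per genotype, no spread between animals could be estimated and no test between genotypes was possible. Each ratio below is that of TMM-scaled counts, scKO over flox/flox, with an exact 95% interval in brackets that covers counting error only. A gene is called higher or lower where it was at least 25% above or 20% below the flox/flox level, equal steps on a log scale, and the interval excluded 1. In bulk tissue, fewer cells of a type and less RNA per cell cannot be told apart. The libraries held 13842100 counts in scKO and 14727219 in flox/flox. Cipc itself, the gene targeted, had 111 counts in scKO and 658 in flox/flox, a ratio of 0.175 (0.142 to 0.214). This is 7.91 TMM-scaled CPM in scKO and 45.3 in flox/flox, measured in RNA of the whole muscle. Which cells lost Cipc RNA, and whether the fibres kept it, was not tested. Muscle fibre markers, 12 of 12 detected, summed to 140283 TMM-scaled CPM in scKO and 150974 in flox/flox.

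The desaturases Scd1 and Scd2 lie on mouse chromosome 19 and are close copies, which bears on how their reads could be assigned. Of 1064 aligned coding bases, 965 (90.7%) were identical between them in GENCODE M21 transcripts. The longest run that both share is printed once, as a read within it cannot tell the genes apart; it spans coding bases 523 to 669 of Scd1 and 532 to 678 of Scd2, counted from the start codon.
Scd1 and Scd2: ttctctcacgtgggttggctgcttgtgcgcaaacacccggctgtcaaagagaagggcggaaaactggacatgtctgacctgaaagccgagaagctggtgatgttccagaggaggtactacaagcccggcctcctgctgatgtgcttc
The 60-base window in which they differ most, at bases 103 to 162 of Scd1 and 112 to 171 of Scd2, has 18 differing bases, shown in capitals.
Scd1: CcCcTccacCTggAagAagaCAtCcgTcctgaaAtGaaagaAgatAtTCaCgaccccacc
Scd2: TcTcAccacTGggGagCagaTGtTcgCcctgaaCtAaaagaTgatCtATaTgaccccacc
Over whole transcripts, 145 of the 4888 different 50-base words of Scd1 (2.97%) also occur in Scd2, and 223 (4.56%) occur in any other gene. For Scd2, 217 of 5461 words (3.97%) occur in any other gene, so most of either transcript belongs to 1 gene alone. The nearby desaturase genes Scd3 and Scd4 had 0 and 2 counts in scKO and 0 and 0 counts in flox/flox.

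Promoter windows, from 250 bases before to 50 after an annotated start, were found in the RefSeq table of build GRCm38.p6 for 6 of the 10 genes, in 7 windows. The window of Acaca and both windows of Lipe lie inside the gene spans of GENCODE M21. The outermost starts of Acaca and Lipe were therefore not searched. Scd1, Scd2, Dgat1 and Dgat2 had no entry. The windows were searched on both strands for the E-box CACGTG, the CCAAT box, the GC box GGGCGG and the sterol regulatory element. An E-box was in 1 of the 7 windows, against 7.15% of all 32851 windows in the table. This was the upstream window of Lipe (chr7:25395938-25396237, minus strand), shown because CLOCK and BMAL1 bind that sequence. Capitals mark its E-box and 6 GC boxes, some of which overlap.
Lipe: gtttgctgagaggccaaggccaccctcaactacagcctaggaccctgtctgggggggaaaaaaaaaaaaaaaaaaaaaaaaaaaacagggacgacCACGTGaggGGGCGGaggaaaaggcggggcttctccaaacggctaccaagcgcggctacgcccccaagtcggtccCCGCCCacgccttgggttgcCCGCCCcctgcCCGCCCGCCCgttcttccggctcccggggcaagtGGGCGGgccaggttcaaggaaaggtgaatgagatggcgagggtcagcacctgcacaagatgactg
The window of Acly (chr11:100527951-100528250, minus strand) is shown for comparison, as Acly was the only gene of the palmitate pathway whose interval lay above 1 with TMM scaling. Capitals mark 4 GC boxes and 1 CCAAT box, and no E-box match was found.
Acly: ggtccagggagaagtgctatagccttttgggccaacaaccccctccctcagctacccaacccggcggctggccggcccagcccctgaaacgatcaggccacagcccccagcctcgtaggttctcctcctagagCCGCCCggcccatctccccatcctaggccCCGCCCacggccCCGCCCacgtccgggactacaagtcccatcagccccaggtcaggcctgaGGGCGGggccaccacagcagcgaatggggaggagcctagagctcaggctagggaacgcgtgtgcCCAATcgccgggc
GC boxes were in 3 of the 7 windows, against 35.7% of all windows, and CCAAT boxes in 2 of the 7, against 37.4%. None of the 7 held the sterol element, which is in 0.234% of all windows. These matches describe letters and are no evidence of binding.

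Enzyme levels spanned more than 2 orders of magnitude. On the deposited FPKM scale, which divides by gene length, they ran from 0.196 for Elovl6 to 33.4 for Dgat2 in scKO and from 0.104 for Elovl6 to 23.4 for Dgat2 in flox/flox. In descending order of FPKM the enzymes were Dgat2, Pnpla2, Scd1, Scd2, Lipe, Acly, Fasn, Dgat1, Acaca and Elovl6, in scKO and in flox/flox alike. Dgat2 stood at percentile 94.1 of the tested genes by FPKM in scKO and 92.2 in flox/flox, and Acaca at 21.8 in scKO and 21.05 in flox/flox. The order at the top depended on the length used. Per kilobase of merged exons of GENCODE M21, Pnpla2 led with 45.5 CPM in scKO and 48.3 in flox/flox, above Dgat2 with 24.4 CPM in scKO and 17.1 in flox/flox. The FPKM of Pnpla2 implies a length of 6988 bases, against 3020 bases of merged exons, and that of Dgat2 implies 2251 bases, against 3083. Pnpla2, Scd1 and Dgat2 together took 74.6% (73.4 to 75.7, Clopper-Pearson) of the 5502 enzyme counts in scKO and 73.8% (72.5 to 74.97) of the 5123 in flox/flox.

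**Figure D1:**
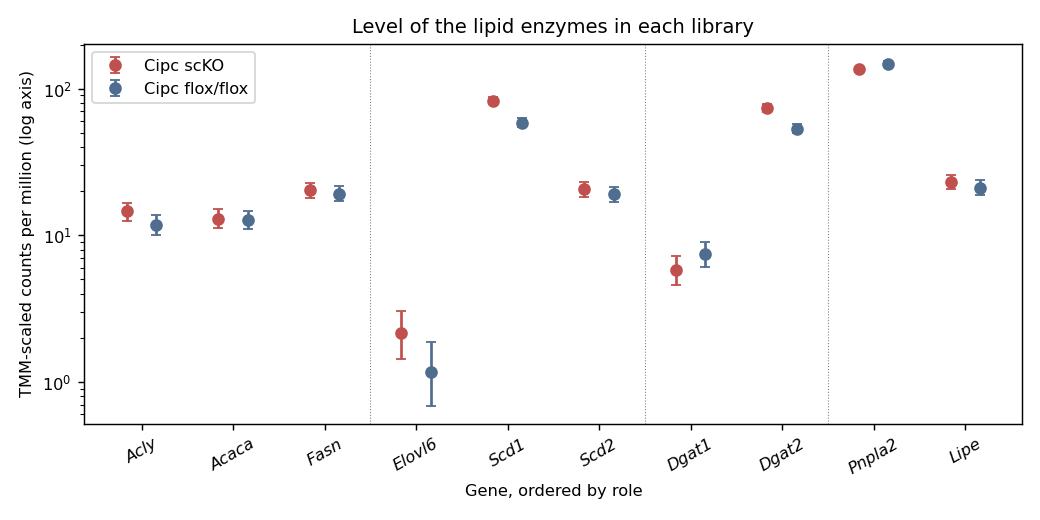
TMM-scaled CPM (log axis) of each enzyme gene in the scKO library (red) and the flox/flox library (blue), with exact 95% Poisson intervals; dotted lines separate palmitate synthesis, elongation and desaturation, triglyceride synthesis and lipolysis. Scd1, at 82.9 in scKO and 58.8 in flox/flox, and Dgat2, at 74.2 in scKO and 53.5 in flox/flox, have intervals that do not overlap.

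Among the 10 enzymes, 2 were called higher in scKO, Scd1 and Dgat2, and none was called lower or was past 2-fold in either direction. By the same rule 7.18% of all tested genes were higher and 7.54% lower, and past 2-fold 1.49% were higher and 1.91% lower. Among the 2341 genes with summed counts of 1000 to 5000, the range that holds Scd1, Dgat2 and Pnpla2, 5.0% were higher and 4.57% lower. The median log2 ratio over the 10 enzymes was 0.13, against 0.0021 over all tested genes, whose quartiles were -0.18 and 0.17. The count of called enzymes rests on the library scaling. Scaled by total counts, 4 of the 10 were called higher, as Acly at 1.27-fold (1.03 to 1.56) and Elovl6 at 1.88-fold (1.003 to 3.63) joined Scd1 and Dgat2. With that scaling 8.89% of all tested genes were higher and 6.29% lower. With folds from FPKM + 1 and intervals from counts scaled by total, 615 genes were higher and 429 lower. TMM-scaled counts gave 909 higher and 955 lower. The added 1 shrinks the folds of genes at low FPKM, so these counts do not differ by scaling alone.

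**Figure D2:**
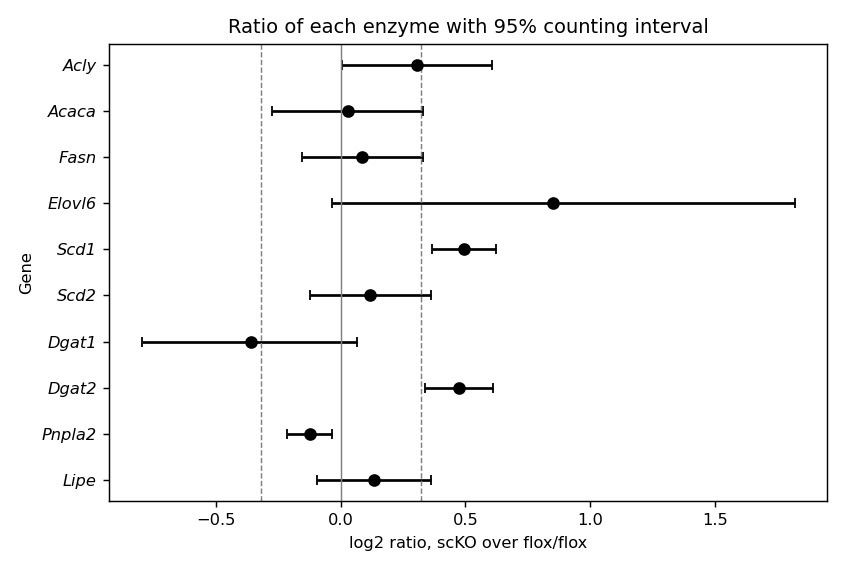
log2 ratio of scKO over flox/flox for each enzyme gene, with the exact 95% counting interval as a bar and dashed lines at 25% higher and 20% lower. The bars of Scd1 and Dgat2 lie wholly to the right of the upper dashed line, and 6 of the 10 bars cross 0.

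**Figure D3:**
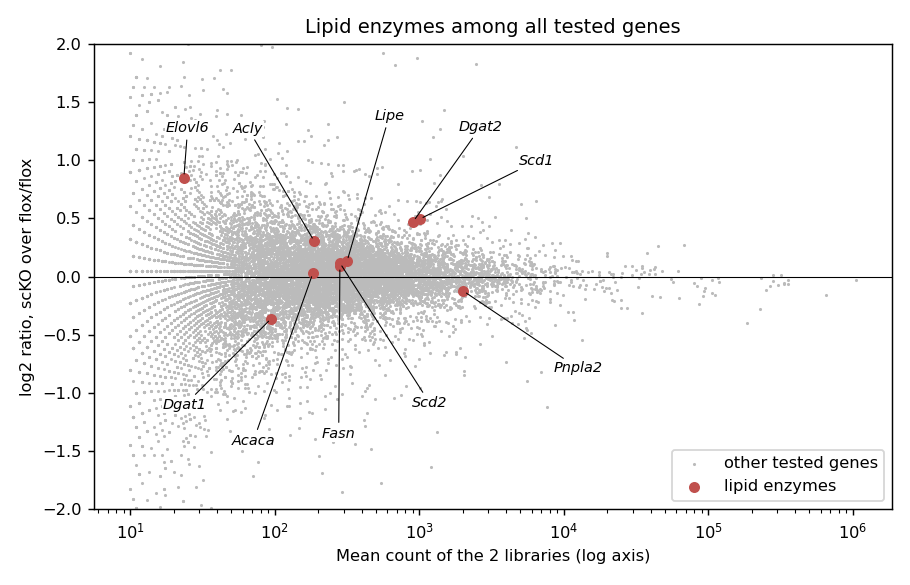
log2 ratio of scKO over flox/flox against the mean count of the 2 libraries (log axis) for all tested genes (grey) and the 10 enzymes (red); 71 tested genes beyond a log2 ratio of 2 in either direction are off the axis. Scd1, at a log2 ratio of 0.49, is at percentile 92.8 of the fold among all tested genes, and Dgat2, at 0.47, at percentile 92.3. Elovl6 lies in the wide scatter of low counts.

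In the palmitate pathway Acly (ENSMUSG00000020917, chromosome 11, 100476353 to 100528000, GRCm38) had 204 counts in scKO and 171 in flox/flox. Its ratio was 1.24 (1.004 to 1.52), short of the 25% limit, with an interval just above 1. On the log2 scale this interval starts at 0.0054. An alternative scaling, by DESeq2 size factors, shifted the median log2 ratio of all genes by -0.0095. The place of the interval above 1 thus depends on the scaling. Acaca, which makes the malonyl-CoA used for chain growth, had 182 counts in scKO and 185 in flox/flox, a ratio of 1.02 (0.826 to 1.26). Fasn had 286 counts in scKO and 279 in flox/flox, a ratio of 1.06 (0.897 to 1.26). The levels of Acaca and Fasn thus lay close together in the libraries, and a difference beyond 1.26-fold is outside their intervals. Counted together, the 3 genes had 672 counts in scKO and 635 in flox/flox, a ratio of 1.10 (0.982 to 1.22). For Acaca, 5016 of 17201 50-base words (29.2%) also occur in the transcript of Gm5182, which has no row in the count table. How reads that match both were treated is not given in the sources used here. No 50-base word of Acly or Fasn occurs in another gene.

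Elovl6 (ENSMUSG00000041220, chromosome 3, 129532355 to 129638495) was the least abundant enzyme, with 30 counts in scKO and 17 in flox/flox. The ratio of 1.83 was the highest of the 10, but its interval of 0.977 to 3.53 includes 1, and at this depth no difference was detectable under the main scaling. Scd1 (ENSMUSG00000037071, chromosome 19, 44394455 to 44407879), the main desaturase of fat and liver, had 1163 counts in scKO and 855 in flox/flox. It was 1.41-fold higher in scKO (1.29 to 1.54). Scd2 (ENSMUSG00000025203, chromosome 19, 44293674 to 44306864), best known as the desaturase of brain, had 289 counts in scKO and 276 in flox/flox. Its ratio was 1.08 (0.917 to 1.28). Of the counts of both desaturases, Scd1 took 80.1% (77.9 to 82.1) in scKO and 75.6% (73.0 to 78.1) in flox/flox. The ratio of Scd1 to Scd2 counts, which does not depend on library scaling, was 1.299 times as high in scKO as in flox/flox (1.07 to 1.57). Per length, Scd1 exceeded Scd2 by 4.54 times in scKO and 3.49 times in flox/flox on the FPKM scale.

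In triglyceride synthesis the acyltransferases diverged. Dgat2 (ENSMUSG00000030747, chromosome 7, 99153658 to 99182719), which is linked to the storage of newly made fatty acids, had 1041 counts in scKO and 777 in flox/flox. It was 1.39-fold higher in scKO (1.26 to 1.53). Dgat1 (ENSMUSG00000022555, chromosome 15, 76502015 to 76511953), which re-esterifies fatty acids from outside the cell and from lipolysis, had 81 counts in scKO and 108 in flox/flox. Its ratio of 0.777 has an interval of 0.575 to 1.05, which includes 1. Dgat2 took 92.8% (91.1 to 94.2) of the counts of the pair in scKO and 87.8% (85.5 to 89.9) in flox/flox. The ratio of Dgat2 to Dgat1 counts was 1.79 times as high in scKO (1.31 to 2.45), the widest shift of the 3 pairs compared. No 50-base word of either gene occurs in another gene. Per length the size of the gap depended on the gene model: Dgat2 exceeded Dgat1 31.4 times in scKO and 17.5 times in flox/flox by FPKM, and 12.7 times in scKO and 7.13 times in flox/flox per merged exon length.

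**Figure D4:**
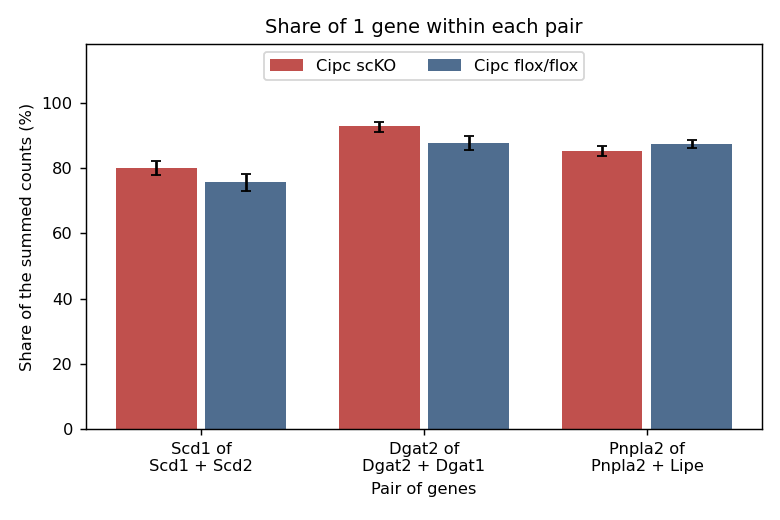
Share (%) of the summed counts of each gene pair taken by Scd1, Dgat2 and Pnpla2 in the scKO library (red) and the flox/flox library (blue), with Clopper-Pearson 95% intervals. The Dgat2 share is 92.8% in scKO and 87.8% in flox/flox, and the Pnpla2 share is 85.4% in scKO and 87.5% in flox/flox.

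Neither lipase was called higher or lower. Pnpla2 (ENSMUSG00000025509, chromosome 7, 141455198 to 141460743), which makes the first cut in triglyceride, was the enzyme with most counts, 1900 in scKO and 2147 in flox/flox. Its ratio was 0.917 (0.862 to 0.976), an interval below 1, with a difference short of the 20% limit. On the log2 scale this interval ends at -0.035. Scaling by total counts shifted the median log2 ratio of all genes by 0.038, so the place of the interval below 1 depends on the scaling. Of all tested genes, 12.3% had intervals below 1 and 12.8% above. Lipe (ENSMUSG00000003123, chromosome 7, 25379527 to 25398710), which acts mainly on diglyceride, had 326 counts in scKO and 308 in flox/flox, a ratio of 1.10 (0.936 to 1.29). Pnpla2 took 85.4% (83.8 to 86.8) of the counts of the pair in scKO and 87.5% (86.1 to 88.7) in flox/flox. The ratio of Pnpla2 to Lipe counts was 0.836 times that in flox/flox (0.705 to 0.992). Set across the steps, the ratio of Dgat2 to Pnpla2 counts was 1.51 times as high in scKO (1.35 to 1.70). This pair was not among the planned pairs within a step. It joins an enzyme called higher to an enzyme with an interval below 1, so it only restates their separate ratios. At the same steps Dgat1 (0.777) and Lipe (1.10) lay the other way, with intervals that include 1. Lipe shares 918 exonic bases with the antisense gene 4732471J01Rik, which had 5 counts in scKO and 9 in flox/flox. Whether counting used strand is not given in the sources used here.

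The rest of the lipid machinery was described with 8 lists of pathway genes that leave out the 10 enzymes. They hold 115 genes with a row, of which 101 were tested. Of these, 13 (12.9%) were higher and 5 (4.95%) lower in scKO by the same rule, beside 7.18% and 7.54% of all tested genes. Since the lists and the limits were chosen with earlier results of these data known, these shares only describe the lists, and an excess was not tested. The median log2 ratio of the 101 tested list genes was 0.040. In fatty acid synthesis, 3 of 12 tested genes were higher and none lower (median 0.096). Thrsp (Spot 14), a lipogenic protein of fat and liver, had 234 counts in scKO and 173 in flox/flox, a ratio of 1.40 (1.15 to 1.72). Acss2, which makes acetyl-CoA from acetate, had 630 counts in scKO and 491 in flox/flox, a ratio of 1.33 (1.18 to 1.499). The malic enzyme gene Me1, the best expressed of this list, had 3280 counts in scKO and 3456 in flox/flox, a ratio of 0.983 (0.937 to 1.03). Aacs, which activates acetoacetate for lipid synthesis, was the third gene called higher, with 56 counts in scKO and 33 in flox/flox (1.76, 1.12 to 2.79).

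In the list of elongation and desaturation, 2 of 12 tested genes were higher and 1 lower, with a median of -0.16. Fads6, a member of the fatty acid desaturase family, had 356 counts in scKO and 190 in flox/flox, a ratio of 1.94 (1.62 to 2.33). Fads2, the delta-6 desaturase, was called higher on 22 counts in scKO and 10 in flox/flox (2.28, 1.04 to 5.39). Tecr, the reductase of the last step of each elongation cycle, had 2463 counts in scKO and 3396 in flox/flox, a ratio of 0.751 (0.713 to 0.792). Of 5 acyl-CoA synthetase genes, Acsl3 was lower, with 442 counts in scKO and 635 in flox/flox (0.721, 0.637 to 0.816), while Acsl1, the best expressed, had a ratio of 0.955 (0.904 to 1.01). In glycerolipid synthesis 1 of 12 tested genes was higher and none lower (median 0.063). This was Lpin1, the phosphatidate phosphatase that makes the diglyceride used by the DGAT enzymes, with 3886 counts in scKO and 2830 in flox/flox (1.42, 1.36 to 1.49). Gpd1, which supplies the glycerol phosphate backbone, had 9687 counts in scKO and 9527 in flox/flox (1.05, 1.02 to 1.08).

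Among 11 tested genes of lipolysis and its regulation, 3 were higher and 1 lower (median 0.12). G0s2, an inhibitor of the Pnpla2 lipase, had 153 counts in scKO and 95 in flox/flox, a ratio of 1.67 (1.28 to 2.18). Ces1d, a carboxylesterase with triglyceride hydrolase activity, had 390 counts in scKO and 208 in flox/flox, a ratio of 1.94 (1.64 to 2.31); it belongs to a cluster of similar genes whose reads could be divided. Mgll, which cleaves monoglyceride, had 193 counts in scKO and 152 in flox/flox, a ratio of 1.32 (1.06 to 1.64). Abhd5, the activator of Pnpla2, had 503 counts in scKO and 507 in flox/flox, a ratio of 1.03 (0.907 to 1.17). Lipoprotein lipase (Lpl), the best expressed of the list, had 11756 counts in scKO and 10801 in flox/flox (1.13, 1.10 to 1.16). Pnpla3, a lipid droplet hydrolase related to Pnpla2, was the lower gene, with 25 counts in scKO and 45 in flox/flox (0.576, 0.338 to 0.959).

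Among 12 tested lipid droplet genes, 2 were higher and 1 lower (median 0.060). The droplet coat genes Plin3, with 534 counts in scKO and 399 in flox/flox (1.39, 1.22 to 1.58), and Plin4, with 4839 counts in scKO and 3789 in flox/flox (1.32, 1.27 to 1.38), were higher. Plin5, the coat protein of oxidative tissue, had a ratio of 0.923 (0.746 to 1.14). Cav1, the caveolar scaffold protein, had 127 counts in scKO and 570 in flox/flox, a ratio of 0.231 (0.189 to 0.280), and was past 2-fold lower. Fitm1, which helps droplets form and is a muscle gene, had 1711 counts in scKO and 1507 in flox/flox (1.18, 1.10 to 1.26).

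The regulators of lipogenesis gave 2 higher and no lower genes of 22 tested (median 0.078). These were Lpin1, which acts as a coactivator too, and Nr1h3 (LXR alpha), with 128 counts in scKO and 98 in flox/flox (1.35, 1.03 to 1.78). Srebf1, which encodes the main activator of Fasn and Scd1, had 397 counts in scKO and 451 in flox/flox, a ratio of 0.912 (0.795 to 1.05). Mlxipl, which encodes the carbohydrate-responsive factor ChREBP, had 1233 counts in scKO and 1276 in flox/flox, a ratio of 1.001 (0.925 to 1.08). Of 16 tested sterol synthesis genes, 1 was higher and 1 lower (median 0.024). Lanosterol synthase (Lss) was the lower one, with 40 counts in scKO and 77 in flox/flox (0.538, 0.358 to 0.799), and Fdft1, the best expressed, had a ratio of 1.07 (0.972 to 1.18).

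**Figure D5:**
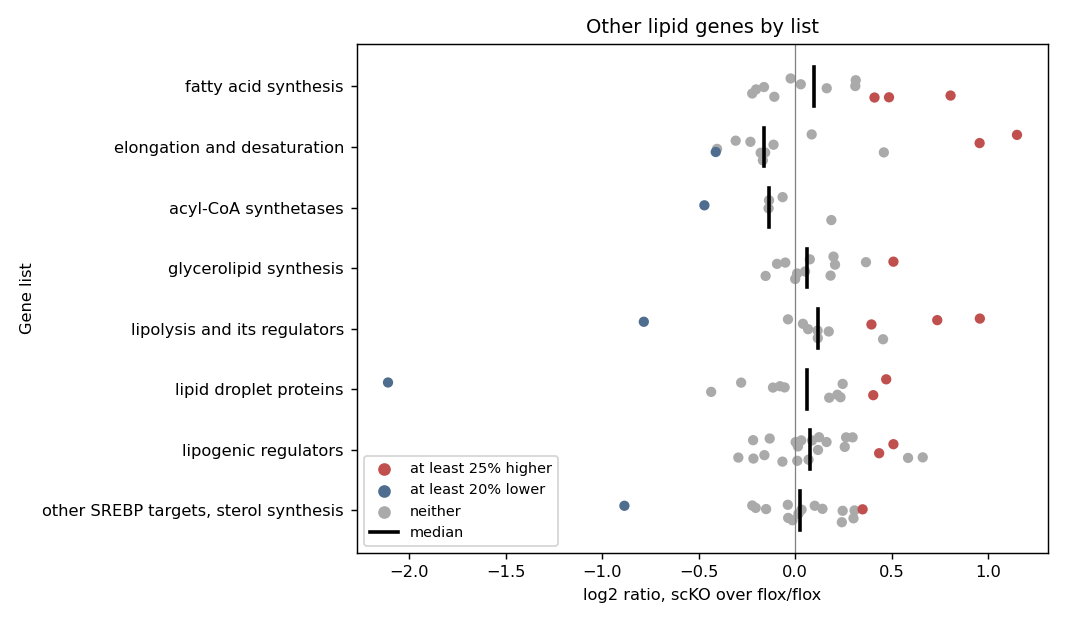
log2 ratio of scKO over flox/flox of each tested gene in the 8 lipid lists that leave out the 10 enzymes; red and blue points are at least 25% higher and 20% lower with an interval that excludes 1, and black bars are list medians. Medians run from -0.16 for elongation and desaturation to 0.12 for lipolysis, and Cav1 is the far point at -2.11.

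Several of these genes are strongly expressed in fat cells, so markers of other cells are given beside them. Of 11 adipocyte markers 9 were tested, and none was called higher or lower. Summed, they came to 215 scaled CPM in scKO and 186 in flox/flox, a log2 ratio of the sums of 0.21 (0.13 to 0.28). Most of the sum was Fabp4, which endothelial cells also express, with 2507 counts in scKO and 2208 in flox/flox, a ratio of 1.18 (1.11 to 1.246). The defining fat cell genes Adipoq (55 counts in scKO, 52 in flox/flox), Cfd (253 in scKO, 251 in flox/flox) and Plin1 (47 in scKO, 41 in flox/flox) had intervals that include 1. Cidec (42 in scKO, 46 in flox/flox) had an interval that includes 1 too, and Retn (11 in scKO, 15 in flox/flox) and Cidea (12 in scKO, 17 in flox/flox) had few counts. Ucp1 had 0 counts in both, which by a floor of 3 counts allows up to 0.214 scaled CPM in scKO and 0.206 in flox/flox. Of 8 endothelial markers 2 (Flt1 and Tek) were higher and none lower, with sums of 302 scaled CPM in scKO and 263 in flox/flox. Schwann cell markers, 9 of 10 tested, summed to 84.9 scaled CPM in scKO and 91.4 in flox/flox, and Sox10 was lower. Skin and sebaceous gland markers, 2 of 9 tested, summed to 28.8 scaled CPM in scKO and 33.2 in flox/flox, nearly all of it Mgst1, with Krt14, Krt79, Awat1, Elovl3 and Scd3 at 0 counts in both. Markers of fibro-adipogenic progenitors, 3 of 8 (Pdgfra, Clec3b and Col15a1) lower, summed to 346 scaled CPM in scKO and 392 in flox/flox. Satellite cell markers, all 7 tested, summed to 29.9 scaled CPM in scKO and 28.5 in flox/flox, with a median log2 ratio of 0.18. Of these, 1 was called lower, Pax7, with 39 counts in scKO and 69 in flox/flox (0.586, 0.385 to 0.880), and the intervals of the other 6 include 1. Macrophage markers, all 8 tested, summed to 44.3 scaled CPM in scKO and 41.8 in flox/flox. Cd163 was called higher, with 109 counts in scKO and 76 in flox/flox (1.49, 1.10 to 2.02), and C1qc lower, with 72 counts in scKO and 112 in flox/flox (0.666, 0.488 to 0.904). The part of these cells in the enzyme ratios was not tested.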

How the data were processed

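The authors deposited a table of whole-number gene counts and, per library, a file of FPKM values; both are as the authors deposited them. CASAVA, StringTie 1.3.0 and HISAT2 2.0.4 are named, with build GRCm38, per the submitters' processing notes; their roles, the annotation, strand setting and treatment of shared reads are not given in the sources used here. The deposited FPKM hold the count over the library total and a length, which matched the sum of all distinct GENCODE M21 exons to 1% for 7909 of 11572 genes, so genes with many isoforms have low FPKM. Symbols were found for 34267 of 34745 identifiers. Counts were scaled by TMM (edgeR 4.0.16, R 4.3.3); factors were 1.01 for scKO and 0.987 for flox/flox. Log2 ratios carry a prior count of 0.5; folds and Clopper-Pearson 95% intervals come from the counts alone. PCR copies are not independent molecules, so intervals cover counting error only. No edgeR test was possible with 1 library per group. Genes with a summed count of at least 20 were used. The code was tested on simulated counts. Alternatives were total counts, DESeq2 1.42.0 size factors, totals without mitochondrial genes, log2(FPKM + 1), a prior count of 5 and count minimums of 100 and 1. The enzymes, lists and limits of 25% and 20% were chosen with earlier results of these data known. Named list genes were those called, with 100 counts or more in 1 library, up to 5 in each list, and the gene with most FPKM; Abhd5, Plin5, Srebf1, Mlxipl, the called genes with fewer counts and the called cell markers were added after their values were seen. Computation used Python 3.11.15, scipy 1.17.1 and Biopython 1.88. One gene called higher in the sterol synthesis list is counted but its values are not reported here.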

Additional observations from a re-analysis of the deposited data

How the results depend on the processing

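All 50 alternative values of the 10 enzyme ratios stayed within the main 95% intervals, with log2 ratios of 0.49 to 0.53 for Scd1 and 0.46 to 0.51 for Dgat2; on the log2(FPKM + 1) scale Elovl6, at low FPKM, stood at 0.12. With total counts, and with totals without mitochondrial genes, 4 enzymes were called higher in place of 2. Over all genes, folds from FPKM + 1 with intervals from counts scaled by total called 429 at least 20% lower, against 955. Past 2-fold they called 32 higher and 25 lower, against 189 and 242. A count minimum of 100 left 58 higher and 68 lower past 2-fold, and a minimum of 1 gave 369 lower. Per merged exon length the Dgat2 share was 92.7% in scKO and 87.7% in flox/flox, against 96.9% and 94.6% by FPKM. The Pnpla2 share was 91.9% in scKO and 93.1% in flox/flox, against 89.0% and 90.6% by FPKM. The length models differ by construction. No paired analysis was possible because each genotype has 1 library. Leaving out a library was not possible for the same reason. Counting intervals of the log2 ratio were widest among the 10 enzymes for Elovl6 (-0.034 to 1.82) and Dgat1 (-0.80 to 0.065).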
